A study of Mus musculus with 8 samples.

Results

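Cycling T cells of mouse heart, liver and kidney allografts were taken as T cells that carried transcripts of dividing cells. A cell was kept with at least 500 unique molecular identifiers (UMIs, the count of distinct captured mRNA molecules) and at most 10% mitochondrial UMIs. It was called a T cell with at least 2 UMIs of Cd3d, Cd3e, Cd3g and Trac together, no UMI of the macrophage receptor gene Csf1r and none of the B cell gene Cd79a. It was called cycling with at least 3 UMIs of Mki67, Top2a, Ube2c, Birc5, Cdk1 and Ccna2 together, so the members were chosen by the measured counts of these 12 genes, which are therefore given no test. Of 80000 barcodes, 47541 passed as cells, 16996 of these were T cells, and 3053 T cells were cycling. The grafts held 2841 of the cycling cells and blood held 212. The other 13943 T cells, with 0 to 2 UMIs of the cycle genes, are called non-cycling, although at this depth a dividing cell can show none of these transcripts.

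Organs of BALB/c mice had been placed in C57BL/6 recipients, all 8 weeks old and labelled male, with no immunosuppression, and cells were taken on day 7 after transplantation. The 8 libraries, made by Microwell-seq from beads and cells trapped in microwells, were peripheral blood mononuclear cells (PBMCs) of recipients of the 3 organs, tissue-infiltrating lymphocytes (TILs) of the 3 organs, isolated by density gradient, and parenchymal cells (PCs) of liver and kidney. The labels give the strain BALB/c for every library, blood included, and do not say how many animals a library held, while the study used 2 recipients per organ. With 1 library per condition, organs and compartments were not tested against each other, and intervals cover counting error only.

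The libraries held from 3418722 to 19171264 UMIs. Pairs of libraries shared from 1 to 600 barcodes of passing cells and from 0 to 3 of cycling T cells. 2 TIL libraries went against their organ labels. Hepatocyte markers summed to 405 CPM (UMIs of a gene or list, scaled to 1000000 UMIs of the cells) over the passing cells of the library labelled heart TIL and to 2.55 CPM in the library labelled liver TIL, whereas cardiomyocyte markers reached 23.1 and 159 CPM. The fit of cycling against non-cycling cells was therefore repeated without these 2 libraries, on kidney TIL, liver PC and kidney PC, and is called the 3-library fit below. Few cells remain outside liver PC in it. Proximal tubule markers stood at 3212 CPM in kidney TIL and 7743 CPM in kidney PC and at no more than 60.1 CPM elsewhere. Unless stated otherwise, values for the 5 graft libraries stand in the order heart TIL, liver TIL, kidney TIL, liver PC and kidney PC, with the names as labelled.

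A T cell that meets alloantigen leaves rest, copies its DNA in S phase and divides in M phase, and CD8 T cells do so many times within days while they acquire granzymes, perforin and chemokines. Mki67, Top2a, Ube2c, Birc5, Cdk1 and Ccna2 encode, in this order, a coat protein of mitotic chromosomes, the topoisomerase that untangles them, an enzyme that marks mitotic cyclins for destruction, the survivin subunit of the chromosomal passenger complex, the mitotic kinase and its cyclin A partner. Most of these transcripts are made in S, G2 and M phase, through promoters known to hold CCAAT boxes, bound by NF-Y, and the CHR element TTTGAA, bound by the DREAM and MuvB complexes.

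Promoters of cycle genes that stood higher together are shown to let these elements be seen. The 120 bases before the RefSeq start (GRCm38.p6, all on the minus strand, written 5′ to 3′ as read toward the gene) are given for the gate genes Cdk1 (chr10:69352913-69353032) and Top2a (chr11:99024190-99024309), for the mitotic cyclin gene Ccnb2 (chr9:70421555-70421674) and for Prr11 (chr11:87108715-87108834), the gene outside the cycle lists with the largest rise. Capitals mark CCAAT and TTTGAA on either strand (ATTGG and TTCAAA when reversed), and no marked letters overlap.
Cdk1: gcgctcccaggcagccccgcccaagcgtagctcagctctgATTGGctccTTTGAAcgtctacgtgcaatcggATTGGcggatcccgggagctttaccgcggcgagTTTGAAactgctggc
Top2a: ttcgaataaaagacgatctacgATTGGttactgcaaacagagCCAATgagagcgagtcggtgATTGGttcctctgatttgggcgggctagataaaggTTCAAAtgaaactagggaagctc
Ccnb2: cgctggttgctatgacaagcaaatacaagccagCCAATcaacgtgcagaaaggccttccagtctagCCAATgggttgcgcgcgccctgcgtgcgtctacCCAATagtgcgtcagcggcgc
Prr11: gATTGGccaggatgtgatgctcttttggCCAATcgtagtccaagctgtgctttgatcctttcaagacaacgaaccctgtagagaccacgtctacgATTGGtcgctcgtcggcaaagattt
The Cdk1 stretch held 2 CCAAT and 2 TTTGAA, that of Top2a held 3 and 1, and those of Ccnb2 and Prr11 held 3 CCAAT and 0 TTTGAA. Within 250 bases before the start, CCAAT stood in 73.2% and TTTGAA in 39.3% of the 56 genes with an entry among the 69 of the kinase, kinetochore, spindle and condensin lists described below. Over all 27025 genes with a RefSeq entry these shares were 37.5% and 18.3%, and over the tested genes 41.2% and 13.7%. In the lists of DNA replication, 63.2% of 38 genes held CCAAT and 10.5% held TTTGAA. A match of letters is a description only.

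Cycling cells were a minority of the T cells in every library, and their share differed widely. Liver PC held 1619 cycling cells among 5334 T cells, or 30.4% (95% exact binomial interval 29.1 to 31.6%), which is more cycling cells than in the other 4 graft libraries together. The share was 17.9% (15.7 to 20.3%) for kidney TIL, 12.7% (11.8 to 13.7%) for the library labelled heart TIL and 9.48% (8.55 to 10.5%) for the library labelled liver TIL. Kidney PC held 25 cycling cells, 7.08% (4.64 to 10.3%) of its T cells. In blood, cycling cells made up 34.8% (30.3 to 39.6%) of T cells for kidney recipients, 9.27% for liver recipients and 5.40% for heart recipients.

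Depth differed between the classes and between the libraries, though it did not rank them as the shares did. Cycling T cells had medians of 1238.5, 1274, 914, 2142 and 673 UMIs in the graft libraries, and non-cycling T cells had 790, 754, 662, 1300 and 581. After each cell was thinned to 500 UMIs, the shares past the gate were 3.74, 2.84, 6.82, 6.24 and 3.40%, so that kidney TIL and liver PC differed by less than their counting intervals. In the 3 PBMC libraries the thinned shares were 1.85, 3.97 and 10.5% for heart, liver and kidney, the last being the highest of all 8. Kidney PBMC was also the blood library in which 9.11% of 395 cells rich in S100a8 and S100a9, neutrophil genes, and without a T gene UMI passed the cycle gate.

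Cells that should lack T cell division give the background of the gate. Cells with a Csf1r UMI and no T gene UMI passed it in 3.87% of 388, 1.80% of 556, 6.25% of 32, 7.23% of 664 and 0% of 16 cells, and a count of 0 of 16 says little. Their medians were 841.5, 809.5, 582.5, 1688 and 565 UMIs, and macrophages can themselves divide. After thinning, they passed in 1.29, 0.180, 0, 0.904 and 0%.

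The values that chose the members lay close to the threshold for many cells. The median cycling cell held 4, 4, 3, 5 and 3 cycle gene UMIs, with maxima of 16, 21, 9, 56 and 4. Just inside the threshold stood 267, 124, 112, 408 and 20 cells with exactly 3 UMIs, and just outside it 605, 325, 200, 734 and 44 cells with exactly 2. Cells with at least 5 made up 60.8% of the cycling cells in liver PC, 37.8 and 39.8% in the libraries labelled heart TIL and liver TIL, 19.8% in kidney TIL and none of the 25 in kidney PC. Kidney graft cells thus met the rule mostly at its edge.

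**Figure D1:**
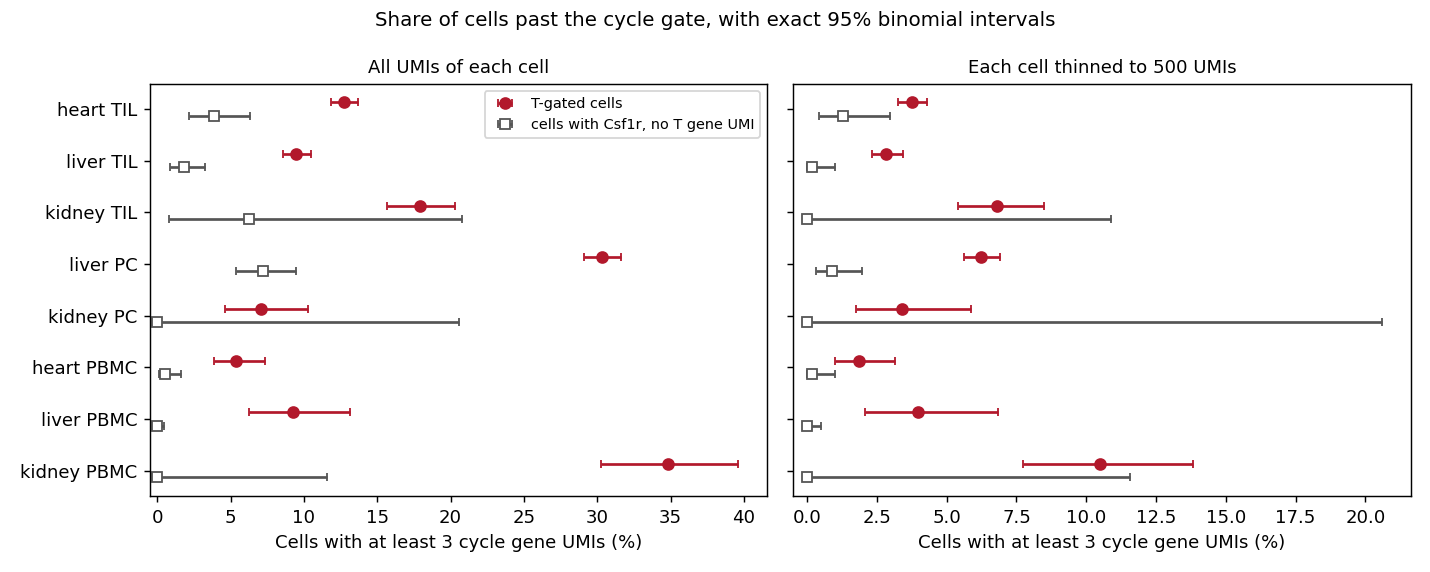
Share of cells past the cycle gate (x axis, percent) in each library (y axis), as counted and after thinning each cell to 500 UMIs, for T cells and for cells with a Csf1r UMI and no T gene UMI. Bars are exact 95% binomial intervals. As counted, liver PC at 30.4% and kidney PBMC at 34.8% stand above the other libraries.

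Genes of cell division that the rule did not use were higher in cycling than in non-cycling T cells. The difference was larger for the lists of mitosis than for those of DNA replication, and for each mitotic list it was smaller in both kidney grafts than in the other 3 graft libraries. These genes are made together with the gate genes, so their calls in the fit are given as a description and support nothing. Ccnb1, the cyclin B1 partner of Cdk1, stood at 267, 305, 257, 276 and 318 CPM in cycling cells and at 93.6, 61.5, 194, 70.4 and 147 CPM in non-cycling cells. Ccnb2, cyclin B2, stood at 410.2, 412, 353, 372 and 318 CPM against 172, 129.7, 241, 125 and 108 CPM. For both cyclins every cycling value lay above every non-cycling value. The fitted change over the 5 libraries was a log2 of 1.58 for Ccnb1 and 1.25 for Ccnb2.

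All 23 measured spindle and cytokinesis genes were higher past the threshold of the fit described below, in which 10.7% of 6251 genes were higher and 18.0% lower, with a median log2 of 1.45, among them Prc1, which bundles the central spindle (1.94), Kif11, the motor that parts the spindle poles (1.72), and Hmmr (1.71). The 10 kinetochore genes, which tie chromosomes to the spindle, had a median of 1.09, led by Cenpf at 1.87, and the 16 condensin and chromatin genes one of 0.87. Of 14 mitotic kinases and checkpoint genes, 13 were past the threshold, with a median of 1.38 and with Nek2 at 1.79, Plk1 at 1.68 and Aurka at 1.63. Pttg1, the securin that inhibits separase until sister chromatids part, was the exception at 0.16. DNA replication genes moved less. Of 12 MCM and origin licensing genes 4 passed, with a median of 0.28, of 16 replication fork genes 10 passed (0.34), and of 13 nucleotide synthesis genes 10 passed (0.44), among them Rrm1 at 0.87 and Rrm2 at 0.78, the subunits of ribonucleotide reductase. None of these replication genes was lower past the threshold. In the 3-library fit, in which 2.64% of 4665 genes were higher and 6.67% lower, 18 of the 19 called spindle genes that could be tested kept their call, as did 11 of 11 kinase, 10 of 10 kinetochore and 12 of 16 condensin and chromatin genes, but 0 of 4 MCM, 2 of 9 replication fork and 2 of 10 nucleotide synthesis genes.

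The kidney libraries differed in size for mitotic genes. Summed over each list without the gate genes, the spindle genes were higher in cycling cells by a log2 of 1.14, 1.52, 0.23, 1.40 and 0.27, and the kinases by 1.19, 1.53, 0.43, 1.42 and 0.62. MCM genes differed by 0.18, 0.54, -0.10, 0.42 and -0.06. The 49 genes of the G2M score stood at 9046, 9051, 7655, 9284 and 7263 CPM in cycling cells. In non-cycling cells they stood at 3797, 3078, 6194, 3484 and 4999 CPM, highest in the kidney libraries. The margin over the comparison cells was thus wide in 3 graft libraries and narrow in both kidney grafts.

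**Figure D2:**
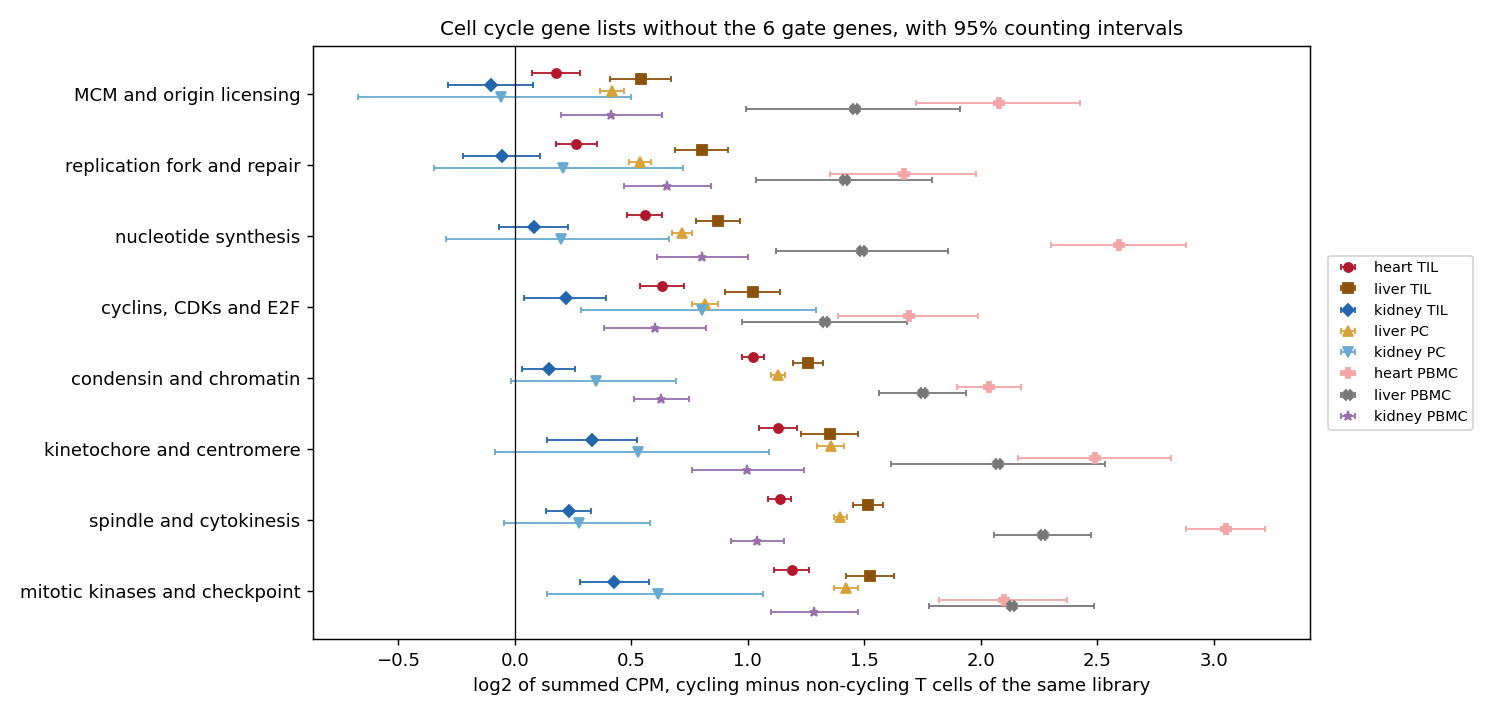
Summed CPM of each cell cycle gene list, without the 6 gate genes, as the log2 of cycling minus non-cycling T cells of the same library (x axis), by list (y axis) and library (colour), with 95% counting intervals. Mitotic lists stand above 1 in the libraries labelled heart TIL and liver TIL and in liver PC and between 0.14 and 0.62 in the kidney grafts.

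G2M transcripts outnumbered S phase transcripts in a larger share of cycling than of non-cycling cells, beyond counting error, in 4 of the 5 graft libraries. The gate genes were left out of the G2M list, but its genes are made together with them, so nothing is read from this share about phase. After thinning to 500 UMIs, 80.3, 74.4, 70.6, 73.3 and 52% of cycling cells held more UMIs of the 49 G2M genes than of 43 S phase genes, against 50.8, 46.0, 54.2, 47.0 and 51.8% of non-cycling cells. In kidney PC, where the 52% were 13 of 25 cells, the classes were alike within counting error.

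A UMI of a CD8 gene was found in far more cycling T cells of the grafts than a Cd4 UMI was, and the same held for non-cycling cells. After thinning, a UMI of Cd8a or Cd8b1, which encode the chains of the CD8 co-receptor, was found in 57.2, 53.8, 55.3, 60.2 and 48% of cycling cells and in 47.9, 43.8, 63.7, 52.2 and 56.7% of non-cycling cells. The share was thus higher in cycling cells in 3 libraries. It was lower in both kidney grafts, where the counting intervals of the classes overlapped. Unthinned, the shares were 75.1% of cycling and 74.5% of non-cycling cells in kidney TIL, and 60 and 62.8% in kidney PC. Cells with Csf1r and no T gene UMI, at the depths given above, held one in 14.7, 16.9, 28.1, 10.5 and 37.5%, the last being 6 of 16 cells, so in kidney PC the T cell shares stood within counting error of the background. A Cd4 UMI was found in 0.457, 0.872, 0.508, 1.36 and 0% of cycling cells, and in 0.578, 0.731, 0.554, 1.83 and 0% of non-cycling cells. In the Csf1r cells the Cd4 share was at most 0.258%.

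Of the cells that a UMI assigned to either lineage, CD8 cells (Cd8a or Cd8b1 and no Cd4) were 99.5, 98.9, 99.1, 98.2 and 100% of cycling cells and 99.4, 98.7, 99.8, 97.8 and 100% of non-cycling cells. The difference averaged -0.00092 percentage points over the 5 graft libraries, from -0.734 to 0.424, and was positive in 3. Among Csf1r cells the same share was 100, 98.9, 100, 98.6 and 100%, resting on 56, 94, 9, 70 and 6 CD8 cells, so it does not set T cells apart from the background. The exact two-sided sign-flip permutation test gave p = 1, where 0.0625 is the smallest p that 5 libraries allow. With shares this near 100%, and with 100% in both classes of kidney PC, the test says little. Unthinned cells gave a mean difference of -0.58 and depth-matched cells one of -0.71, each positive in 1 library, and a gate of 5 cycle UMIs gave -0.89 over 4 libraries. Unthinned, 527, 267, 147, 1408 and 15 cycling cells were CD8 only, 3, 6, 3, 41 and 0 were Cd4 only, 12, 6, 1, 44 and 0 held both, and 114, 65, 46, 126 and 10 held neither. After thinning, 279, 157, 87, 627 and 13 cycling cells held neither. CD8 was assigned by Cd8a or Cd8b1 and CD4 by Cd4 alone, which few cells showed. CD4 cells may thus lie among the unassigned, and the share of assigned cells is not the share of all.

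The co-receptor genes themselves did not pass the test described below. Cd8a stood at 712, 843, 898, 831 and 477 CPM in cycling cells and 537, 592, 966, 729 and 690.3 CPM in non-cycling cells, higher in 3 libraries and lower in both kidney grafts (log2 0.12, adjusted p = 0.265 by edgeR). With cells of both classes drawn to match in depth, a comparison in which 6.46% of 4565 genes were higher and 12.9% lower, the change of Cd8a passed (0.20, adjusted p = 0.0183). Cd8b1 stood at 1174, 1041, 1165, 1184 and 848 CPM against 866, 741, 1204, 1052 and 1028 CPM (log2 0.12, adjusted p = 0.235; depth-matched 0.30, adjusted p = 2.36e-05). Cd4 was low throughout, at 16.9, 30.7, 20.2, 28.5 and 0 CPM against at most 37 CPM in non-cycling cells. Zbtb7b, the transcription factor that fixes the CD4 lineage, was lower (log2 -0.63, adjusted p = 0.0214) and stood higher in Csf1r cells in all 3 libraries with at least 100 of them, but it could not be tested in the 3-library fit. Trbc2, a constant segment of the T cell receptor beta chain that was no part of the rule, stood at 2984, 2386, 2627, 2936 and 2121 CPM in cycling cells against 2193, 1578, 2542, 2526 and 2012 CPM in non-cycling cells (log2 0.17, adjusted p = 0.0583; depth-matched 0.28, adjusted p = 2.67e-06).

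Over all genes, the cells differed in many transcripts, those of division among them. The UMIs of each class were summed per library and compared by edgeR's quasi-likelihood test with the library as a block, over 6251 genes and without the 12 genes of the rule. 669 genes (10.7%) were higher and 1127 (18.0%) lower in cycling cells at an adjusted p under 0.05, with a median log2 of -0.02 over all genes. Outside the cycle lists, 558 were higher and 1121 lower. These lists do not hold every gene of division, as the rises named below show. Of the 1121, 63.7% stood higher in Csf1r cells than in non-cycling T cells in all 3 libraries compared. Over all genes tested that share was 20.3%. How many of the calls lie beyond division was not tested. The balance of higher and lower calls rests on the scaling. With total UMIs in place of TMM factors, the median moved to 0.11, and 62.9% of the calls in place of 37.2% were higher. Without the libraries labelled heart TIL and liver TIL, 123 genes were higher and 311 lower of 4665 tested. Nothing says that the libraries of an organ came from separate animals, so p-values do not speak for animals. They rest on a spread between these libraries that the fit draws partly from all genes. A small p-value or SE therefore does not show that the libraries were alike for a gene. Hk2, for instance, differed by a log2 of -1.15, -1.66, 0.94, -0.24 and 1.70, with a fitted SE of 0.17 and an adjusted p of 0.00893 by edgeR.

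The 10 largest rises outside the cycle lists, with the same sign in all 5 libraries, were led by Prr11. It stood at 28.5, 51.7, 35.3, 46.3 and 53 CPM in cycling cells and at 8.87, 8.44, 22.6, 9.39 and 24.5 CPM in non-cycling cells. Its fitted log2 was 1.94, and those of Troap, a spindle protein, Shcbp1, of the cytokinetic midbody, and Ska1 and Ska3, of the kinetochore, were 1.68, 1.47, 1.39 and 1.38. 2700099C18Rik (1.52), Traip (1.34), Arhgap11a (1.25), RP23-356P21.1 (1.21) and Cenpl (1.21) completed the 10. Each had an adjusted p of 8.91e-07 or less, and the 9 that could be tested in the 3-library fit kept their call. Several of the 10 are themselves genes of mitosis, which the gate selects. As for the cycle lists, their calls are a description and support nothing.

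Among the 10 largest falls, Dcn, Col1a2 and Sparc, of the fibroblast matrix, fell by 2.25, 1.84 and 1.65 on the log2 scale. Fabp4, a lipid carrier of endothelium and macrophages, fell by 2.01, Clu by 1.85, Csf3r, the G-CSF receptor of neutrophils, by 1.79, Cxcl11 by 1.78, the stress factor Atf3 by 1.73, Slc11a1, a metal transporter of phagosomes, by 1.66, and Plaur by 1.64. Each had an adjusted p of 3.13e-16 or less except Cxcl11 and Atf3, with 3.71e-14. In the 3-library fit Clu, Cxcl11 and Sparc could be tested, and they kept their call.

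Most lists of markers of other cell types were lower in cycling cells, where 18.0% of all genes tested were lower. All 11 macrophage markers tested were lower past the threshold (median log2 -1.24), as were all 6 neutrophil (-1.34), 4 erythroid (-1.36), 4 stromal (-1.71) and 5 plasma cell genes (-0.48). Of 6 NK cell genes, Tyrobp (-1.20) and Fcer1g (-1.19), which myeloid cells also use, were lower, and of 3 B cell genes Cd79b (-0.64) and Cd74 (-1.18). The proximal tubule gene Gpx3 was lower (-1.15) and the atrial myosin gene Myl4 higher (0.44, adjusted p = 0.0305). In the 3-library fit 9 of the 9 called macrophage, 3 of 3 neutrophil, 3 of 4 erythroid and 0 of 2 plasma cell genes that could be tested kept their call, and no stromal gene could be tested.

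Other lists went the other way in liver PC, the library with most cycling cells. Markers of granulocyte and monocyte precursors (Mpo, Elane, Prtn3 and Ctsg), cells that themselves divide, summed there to 200.3 CPM in cycling and 127 CPM in non-cycling T cells (log2 0.65, counting interval 0.51 to 0.80). In the library labelled heart TIL they summed to 118 and 167 CPM (log2 -0.49), and cycling cells of the other 3 graft libraries held 0 UMIs of them. Cardiomyocyte markers summed to 40.1 and 24.6 CPM in liver PC (log2 0.70, 0.37 to 1.04), and to 63.2 and 142 CPM in the library labelled liver TIL (log2 -1.17). In the library labelled heart TIL they summed to 35.9 and 27.1 CPM (log2 0.41, -0.19 to 0.97), in kidney TIL cycling cells held 2 UMIs of them, and in kidney PC neither class held any. The part of either list in the results was not tested.

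Lyz2, the macrophage lysozyme, stood at 4199.8, 2759, 1705, 2202 and 6998 CPM in cycling cells and 9055, 6309, 2934, 5161 and 9762 CPM in non-cycling cells. Csf1r cells of the same libraries held 16220.1, 12058, 17968, 13495 and 11679.5 CPM of Lyz2. The macrophage list summed to between 2476 and 9542 CPM in cycling and between 4061 and 18412 CPM in non-cycling cells of the grafts, and the log2 difference was -1.05, -1.22, -0.71, -1.20 and -0.51. The part of this transcript load in the gene changes below was not tested, and falls are therefore set beside the level in Csf1r cells. In all 3 libraries with at least 100 such cells, 1266 of the 6251 genes (20.3%) stood higher in Csf1r cells than in non-cycling T cells, and so did 716 of the 1127 lower genes (63.5%) and 9 of the 669 higher genes (1.35%).

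Of 4 granzyme and perforin genes tested, 2 were higher and none was lower, with a median log2 of 0.23, where 10.7% of all genes tested were higher and 18.0% lower with a median of -0.02. Gzmb (chr14:56258838-56262260, minus strand, GENCODE annotation of GRCm38, as for the positions below), the granzyme that starts the caspase cascade in target cells, stood at 5862, 4262, 585, 5586 and 901 CPM in cycling cells. In non-cycling cells Gzmb stood at 4171, 2464, 564, 4703 and 397 CPM, so it was higher in cycling cells of every library, by the least in kidney TIL. CPM and signs per library, here and below, are scaled to total UMIs, while the fit used TMM factors. The median log2 over all genes was 0.11 on total UMIs and -0.02 with TMM. The sign of a small difference, as in kidney TIL, therefore rests on the scaling. The log2 change of Gzmb was 0.33 (SE 0.08, adjusted p = 2.28e-04). It was 0.27 against depth-matched cells (adjusted p = 1.10e-05), but 0.23 without the library labelled liver TIL (adjusted p = 0.0742) and 0.17 without both libraries labelled heart TIL and liver TIL (adjusted p = 0.588). By DESeq2, with a Wald test, the adjusted p of Gzmb was 0.0562, and by edgeR it was 0.0985 with cycling set at 5 cycle gene UMIs, a fit in which 9.24% of 8420 genes were higher and 13.3% lower.

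Gzmk, a granzyme of memory-like and early effector cells, stood at 261, 209, 90.8, 165 and 106 CPM against 183, 121, 49.7, 138 and 73.4 CPM, again higher in all 5 libraries (log2 0.34, SE 0.09, adjusted p = 0.00132). Depth-matched, the change of Gzmk was 0.46 (adjusted p = 2.95e-04), and without the libraries labelled heart TIL and liver TIL 0.28 (adjusted p = 0.65). Gzma, a tryptase of the same granules, stood at 4093, 1297, 313, 3159.8 and 583 CPM against 3697, 994, 375, 3046 and 421 CPM and did not pass (log2 0.01, adjusted p = 0.964), but it passed as higher against depth-matched cells (0.17, adjusted p = 0.0219). Prf1, the pore-forming perforin, stood at 204, 197, 126, 308 and 106 CPM against 165, 164, 111, 258 and 78.3 CPM, higher in each library but not past the threshold (log2 0.14, adjusted p = 0.274).

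In thinned cells, a Gzmb UMI was found in 83.8, 67.4, 20.8, 78.4 and 32.0% of cycling T cells and in 74.0, 51.6, 18.9, 71.9 and 15.9% of non-cycling T cells. Csf1r cells held one in 27.3, 22.3, 0, 20.2 and 6.25%, so T cells stood above this background beyond counting error in all but kidney PC, where the intervals overlapped. In kidney TIL the share in cycling cells differed from that in non-cycling cells by less than the counting intervals.

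Of 11 other genes linked to cytotoxicity, not all of the granule, 2 were higher and 4 lower, with a median of -0.04, beside the 10.7% and 18.0% over all genes. Serpinb9, the inhibitor that shields a T cell from its own granzyme B, stood at 128, 109, 15.1, 236 and 0 CPM against 85.3, 89, 49.7, 147 and 39.2 CPM (log2 0.41, SE 0.10, adjusted p = 3.07e-04). It was lower in both kidney grafts, and its change was 0.19 without liver PC (adjusted p = 0.521) and 0.24 against depth-matched cells (adjusted p = 0.163). Serpinb6b, of the same inhibitor family, was higher in all but kidney TIL (log2 0.31, adjusted p = 0.00457; depth-matched 0.20, adjusted p = 0.16). Both lost the call without the libraries labelled heart TIL and liver TIL, with adjusted p = 0.586 for Serpinb9 and 0.944 for Serpinb6b.

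The 4 lower genes were Srgn, Ctsc, Ctsd and Lamp1. Srgn, the proteoglycan that packs granules, stood at 1127, 1598, 883, 1113 and 530.1 CPM in cycling cells against 1392, 2301, 971, 1653 and 783 CPM (log2 -0.56, adjusted p = 7.74e-12; 3-library fit -0.50, adjusted p = 0.00105). Its level in Csf1r cells was 1162, 2249, 979, 1357 and 676 CPM, below that of non-cycling T cells in all but kidney TIL. Ctsc, the protease that activates granzymes, fell by 1.13 on the log2 scale, the lysosomal protease gene Ctsd by 0.52 and the lysosomal membrane gene Lamp1 by 0.93, and these 3 stood higher in Csf1r cells than in non-cycling T cells in all 3 libraries compared. Ctsc kept its call in the 3-library fit, and Ctsd and Lamp1 did not (adjusted p = 0.0529 and 0.0733). Nkg7, a granule membrane protein, stood at 4247, 2646, 2784, 3153 and 2809.7 CPM against 3375, 1913, 2906, 2859.9 and 2991 CPM (log2 0.05, adjusted p = 0.637), and it passed against depth-matched cells (0.20, adjusted p = 9.28e-04).

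Of 7 cytokine and chemokine genes tested, 5 were lower and none higher, with a median log2 of -0.39, where 18.0% of all genes tested were lower and 10.7% higher. Of the 5, Ccl5, Ccl4 and Tnf kept their call in the 3-library fit. The genes of 3 of them lie close together, Ccl5 at chr11:83525778-83530518, Ccl3 at chr11:83647844-83649355 and Ccl4 at chr11:83662584-83664683. Ccl5 (RANTES), a chemokine that draws T cells and monocytes, stood at 8766, 3185, 777, 6019.8 and 1802 CPM in cycling cells. In non-cycling cells Ccl5 stood at 11266, 4880.2, 1192, 10029 and 1846 CPM, higher in each library and nearly level in kidney PC. The log2 change was -0.70 (SE 0.08, adjusted p = 4.66e-18), -0.37 against depth-matched cells (adjusted p = 7.38e-12) and -0.71 without the libraries labelled heart TIL and liver TIL (adjusted p = 1.89e-10). Csf1r cells held 5001, 4495, 2056, 2726 and 2124 CPM of Ccl5. In both kidney grafts this was above the level of non-cycling T cells. In the library labelled liver TIL it was above that of cycling T cells. After thinning, a Ccl5 UMI was found in 84.8, 78.8, 46.9, 56.9 and 81.25% of Csf1r cells. Cycling T cells held one in 91.8, 69.8, 28.9, 80.4 and 60%.

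Ccl4 (MIP-1 beta), a chemokine of activated T cells and macrophages, stood at 1501, 1476, 131, 1145 and 53 CPM against 1761, 1809, 230.2, 1526 and 264 CPM, lower in all 5 libraries (log2 -0.50, SE 0.08, adjusted p = 1.25e-08). Its change was -0.59 against depth-matched cells (adjusted p = 1.03e-19) and -0.65 without the libraries labelled heart TIL and liver TIL (adjusted p = 7.08e-04). Ccl3 (MIP-1 alpha) stood at 737, 427, 171, 988 and 371 CPM against 821, 672, 200.1, 1083 and 127 CPM (log2 -0.39, adjusted p = 3.14e-05), and it lost the call against depth-matched cells (adjusted p = 0.0804) and without the libraries labelled heart TIL and liver TIL (adjusted p = 0.835). Ccl5, Ccl4 and Ccl3 were not higher in Csf1r cells than in non-cycling T cells in any of the 3 libraries compared, which leave out both kidney grafts.

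Tnf, the inflammatory cytokine, stood at 27.5, 30.7, 15.1, 34.3 and 53 CPM in cycling cells and 66.3, 58, 10.5, 98.9 and 0 CPM in non-cycling cells, where 53 CPM in kidney PC is 1 UMI (log2 -1.48, SE 0.14, adjusted p = 9.49e-24; 3-library fit -1.47, adjusted p = 2.05e-05). Csf1r cells held more Tnf in the library labelled heart TIL, at 83.2 CPM, and in liver PC, at 121 CPM. Xcl1, the ligand of dendritic cells that express XCR1, stood at 328, 594, 424, 295 and 477 CPM against 269, 629.8, 716, 329 and 416 CPM. Its change of -0.24 (adjusted p = 0.014) was -0.11 without kidney TIL (adjusted p = 0.44) and -0.45 without the libraries labelled heart TIL and liver TIL (adjusted p = 0.0623), while it was -0.95 against depth-matched cells (adjusted p = 0.0231). Ifng, the cytokine of type 1 responses, did not pass (log2 0.01, SE 0.26, adjusted p = 0.981), but it passed as lower when cycling was set at 5 cycle gene UMIs (-0.37, adjusted p = 0.0197).

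Checkpoint receptors, which restrain activated T cells, for the most part did not pass the test. The list held 13 genes tested, among them Cd274, Entpd1 and Tox, which do not encode receptors. Of the 13, 1 was higher and 3 were lower, with a median of -0.01, shares close to the 10.7% higher and 18.0% lower over all genes. Pdcd1 (PD-1, chr1:94038305-94052553, minus strand) stood at 179.7, 303, 282, 158 and 53 CPM in cycling cells and at 126, 209.6, 284, 123 and 201 CPM in non-cycling cells. It was higher in the 3 libraries other than the kidney grafts, level in kidney TIL and lower in kidney PC, where cycling cells held 1 UMI (log2 0.24, SE 0.09, adjusted p = 0.0248). The call was lost against depth-matched cells (0.12, adjusted p = 0.516) and without the library labelled heart TIL, the library labelled liver TIL or liver PC (adjusted p = 0.225, 0.145 and 0.275), and the change was 0.07 without both labelled TIL libraries of heart and liver (adjusted p = 0.966).

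Lag3, which binds MHC class II, stood at 215, 151, 85.7, 242 and 159 CPM against 179, 107, 97.8, 247 and 152 CPM (log2 0.01, SE 0.09, adjusted p = 0.968). Havcr2 (TIM-3) stood at 46.5, 59.4, 30.3, 71.5 and 53 CPM against 47.6, 68.6, 27.1, 59.7 and 19.6 CPM (log2 -0.01, SE 0.13, adjusted p = 0.965). Tigit was higher in all 5 libraries, at 26.4, 23, 10.1, 49.7 and 106 CPM against 17, 7.38, 9.03, 45.9 and 24.5 CPM, and did not pass (log2 0.22, SE 0.16, adjusted p = 0.339). The misses of Lag3, Havcr2 and Tigit do not show equal levels, and their SEs give the size that the test could see.

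Ctla4, the competitor of CD28 for its ligands, had a change of 0.05 (adjusted p = 0.752). Tox, a transcription factor of exhausted T cells, had one of 0.30 (adjusted p = 0.0541), which passed when cycling was set at 5 cycle gene UMIs (0.59, adjusted p = 5.52e-04). The lower genes were Vsir (-0.58), Entpd1 (-0.78) and Cd274 (-1.01), which encode VISTA, CD39 and PD-L1, and each stood higher in Csf1r cells in all 3 libraries compared. In the 3-library fit Vsir kept its call (adjusted p = 0.0155), Entpd1 did not (adjusted p = 0.256) and Cd274 could not be tested.

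In thinned cells, at least 1 UMI of Pdcd1, Lag3, Havcr2 or Tigit was found in 20.3, 19.5, 17.8, 22.6 and 16% of cycling cells and in 16.1, 16.8, 18.7, 21.3 and 18.0% of non-cycling cells. Csf1r cells held one in 5.15, 7.37, 9.38, 3.01 and 0%. UMIs of 2 or more of the 4 genes were found in 1.68, 1.45, 1.52, 1.91 and 0% of cycling cells against 1.18, 1.04, 1.33, 2.23 and 0.30%. At this depth, a cell that carried several receptors at once was seldom seen in either class.

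Of 12 genes of IL-2 signalling and STAT5 targets, 2 were higher and 4 lower, with a median of -0.23, beside 10.7% higher and 18.0% lower over all genes tested. Il2ra (CD25), the chain that gives the IL-2 receptor its high affinity, stood at 34.9, 47.9, 75.6, 32.1 and 0 CPM against 22.7, 33.1, 36.1, 24.5 and 19.6 CPM (log2 0.40, SE 0.16, adjusted p = 0.0437). Against depth-matched cells the sign of Il2ra turned (-0.10, adjusted p = 0.826). Il2rb, the shared IL-2 and IL-15 receptor chain, stood at 187, 355, 282, 240.1 and 265 CPM against 149, 224, 287, 192 and 269 CPM (log2 0.22, adjusted p = 0.0368; depth-matched 0.24, adjusted p = 0.0706; 0.41 at the gate of 5, adjusted p = 0.0057). Bcl2, the survival factor, stood at 10.6, 19.2, 30.3, 10.3 and 159 CPM against 13.1, 20, 45.1, 23.6 and 29.4 CPM (log2 -0.87, adjusted p = 1.74e-04), and its change was -0.27 without liver PC (adjusted p = 0.663). The other lower genes were Pim1 (-0.45), Socs1 (-0.47) and Il2rg (-0.21), a kinase and a feedback inhibitor induced by cytokines and the common gamma chain. Of these 6 genes, Bcl2 alone kept its call in the 3-library fit (adjusted p = 0.0194), and Il2ra, Il2rb, Il2rg, Pim1 and Socs1 had adjusted p from 0.574 to 0.955.

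Of 10 costimulation receptors, none was higher and 2 were lower, Cd44 (-0.51) and Tnfrsf4 (-0.29; -0.46 against depth-matched cells), with a median of 0.02, and the share lower is close to the 18.0% over all genes. Icos stood at 64.5, 119, 171, 94.3 and 159 CPM against 57.9, 86.9, 226, 84.2 and 186 CPM (log2 0.01, adjusted p = 0.953). Of 14 glycolysis genes, 4 were lower and none higher (median -0.08, beside the same 18.0% lower and 10.7% higher over all genes). The 4, Hk2, Gpi1, Aldoa and Pkm, each stood higher in Csf1r cells in all 3 libraries compared. Of 5 regulatory T cell genes Il2ra was higher and Tnfrsf4 lower (median 0.02). No call of the costimulation, glycolysis and regulatory T cell lists was kept in the 3-library fit, and 1 of the glycolysis genes turned sign there.

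Tcf7 (TCF-1), the factor of naive and stem-like T cells, stood at 7.4, 23, 30.3, 20.6 and 106 CPM against 10.8, 27.4, 43.6, 29.4 and 49 CPM (log2 -0.57, SE 0.18, adjusted p = 0.00878). It held against depth-matched cells (-0.72, adjusted p = 0.0245) but not at the gate of 5 (-0.36, adjusted p = 0.299), and without the libraries labelled heart TIL and liver TIL its adjusted p was 0.426.

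Of 12 fate transcription factors, 6 were lower and none higher, with a median of -0.26, where 18.0% of all genes tested were lower and 10.7% higher. Besides Tcf7, these were Nr4a1, an early gene of receptor signalling (-1.12), Id3 (-0.65), Zeb2 (-0.65), Klf2 (-0.45) and Irf8 (-0.26). Zeb2 and Irf8 stood higher in Csf1r cells in all 3 libraries compared, Nr4a1 and Id3 in 2, and Tcf7 and Klf2 in none. Klf2, which keeps T cells in circulation, had no change against depth-matched cells (0.01, adjusted p = 0.989). Tbx21 (T-bet, 0.18) and Prdm1 (Blimp-1, 0.11), regulators of effector cells, did not pass. Id3 kept its call in the 3-library fit (-0.77, adjusted p = 0.0182), Tcf7, Klf2 and Irf8 did not, and Nr4a1 and Zeb2 could not be tested. Among homing and residency genes, S1pr4, a sphingosine phosphate receptor, was higher (0.31), and the chemokine receptor Ccr2 (-0.55) and the LFA-1 integrin chain Itgal (-0.44) were lower, and all 3 calls were lost in the 3-library fit (adjusted p = 0.913, 0.15 and 0.203). Cxcr3, a receptor of effector T cells, stood at 184, 218, 166, 224 and 106 CPM against 139.7, 159.99, 163, 196 and 176 CPM (log2 0.15, adjusted p = 0.232).

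Inhibitors of cell division split. Cdkn1a (p21), which stops the cycle after damage, stood at 23.3, 34.5, 5.04, 16.3 and 53 CPM in cycling cells and 32.5, 103, 16.6, 27.7 and 88.1 CPM in non-cycling cells, with a fitted log2 of -1.07. The antiproliferative genes Btg2 (-0.83) and Btg1 (-0.57) were lower too, while Cdkn2c (p18, 0.97), Cdkn3 (0.94) and Cdkn2d (p19, 0.58) were higher. Of 12 cyclin, CDK and E2F genes 6 were past the threshold as higher and 2 as lower, beside 10.7% and 18.0% over all genes, the lower ones being Ccnd1 (-0.89) and Ccnd2 (-0.40), cyclins of entry from rest. Cdkn1a, Btg2 and Cdkn3 kept their call in the 3-library fit, Btg1, Cdkn2d and Ccnd2 did not, and Cdkn2c and Ccnd1 could not be tested. All of these genes belong to the cycle lists, so their calls are a description and support nothing.

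Tcrg-C2, a constant segment of the gamma chain of the gamma delta T cell receptor, was higher in all 5 libraries. It stood at 99.4, 117, 40.3, 92.4 and 53 CPM against 55.2, 42.5, 39.1, 58.1 and 19.6 CPM (log2 0.71, SE 0.12, adjusted p = 1.24e-08). Depth-matched, the change was 0.84 (adjusted p = 6.64e-07), and without the libraries labelled heart TIL and liver TIL 0.50 (adjusted p = 0.293). The gamma constant segments resemble each other closely, and the authors removed reads that aligned more than once, so the split among them is uncertain. In liver PC, the 1408 cycling CD8 cells held 372 UMIs of Tcrg-C2 and 17 of Trdc, the delta chain constant segment. The 41 cycling CD4 cells held 0 of either, and with so few cells the 0 of Trdc says little.

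**Figure D3:**
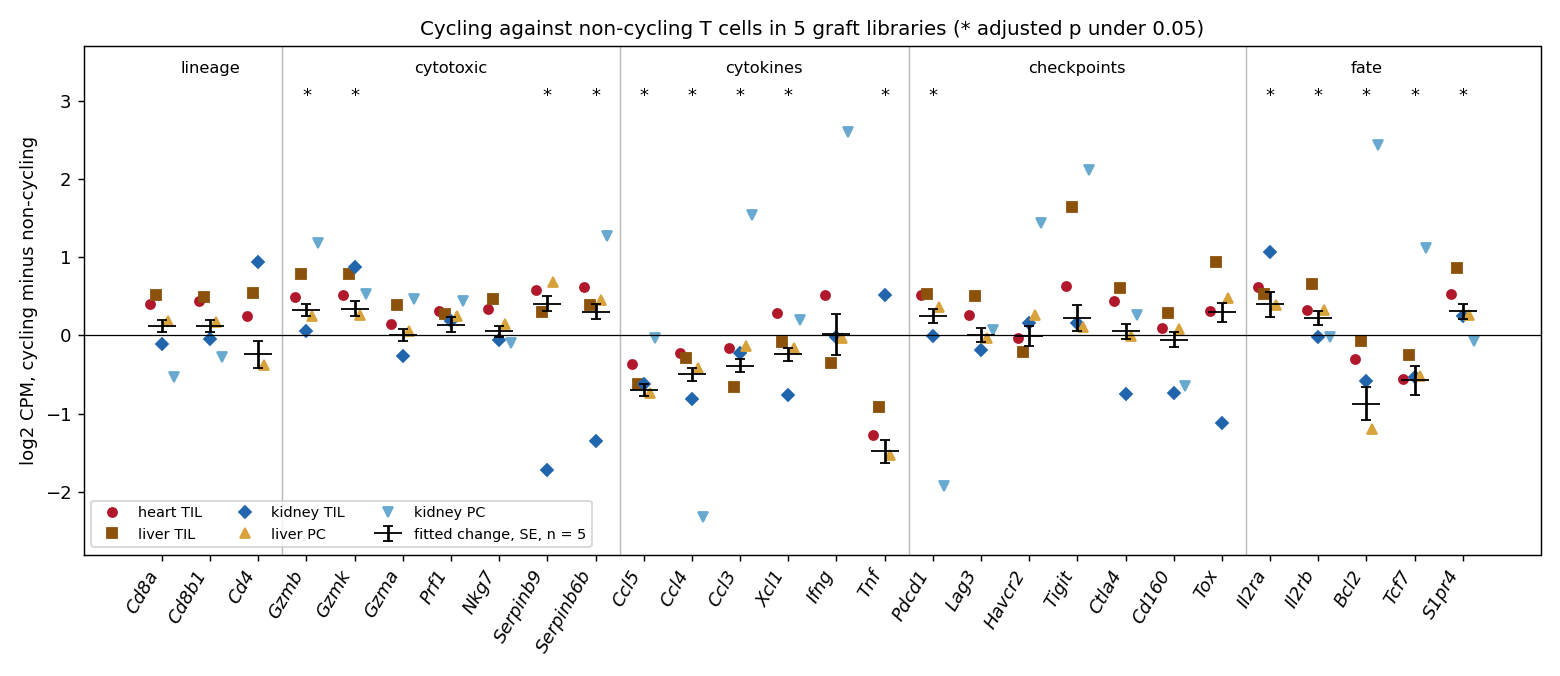
Log2 CPM of cycling minus non-cycling T cells (y axis) for genes of lineage, killing, cytokines, checkpoints and fate (x axis). Each symbol is a graft library, missing where a class had 0 UMIs, and each bar is the change fitted over 5 libraries. Its SE comes from the fit and is not the spread of the symbols. Symbols are scaled to total UMIs and bars with TMM factors, so the 2 scales differ. A star marks an adjusted p under 0.05. Gzmb and Gzmk stand above 0 in every library and Ccl5 and Ccl4 below it.

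The list genes that passed can be set beside the Csf1r cells as a whole. The 9 higher genes outside the cycle lists (Il2ra, Tcrg-C2, Gzmb, Gzmk, Serpinb9, Serpinb6b, Pdcd1, Il2rb and S1pr4) stood higher in Csf1r cells in none of the 3 libraries compared. Of the 35 lower genes, 17 stood higher there in all 3 libraries, 7 in 2 and 11 in none. Over all genes tested 20.3% stood higher there in all 3 libraries and 42.7% in none. Over all lower genes these shares were 63.5% and 14.2%, and over all higher genes 1.35% and 75.8%. Csf1r cells were taken without a T gene UMI, which itself favours low levels of T cell genes in them. The lower genes higher there in none are set beside Csf1r cells only, not beside other cell types. The 11 were Ccl5, Ccl4, Ccl3, Xcl1, Srgn, Il2rg, Bcl2, Tcf7, Klf2, Ly6c2 and Tnfrsf4.

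Levels by the number of cycle gene UMIs are given as a description, since that number chose the cells. Gzmb in the library labelled heart TIL stood at 3994 CPM in T cells with 0 cycle UMIs, 4372 with 1 or 2, 5647 with 3 or 4, 5898 with 5 to 7 and 6477 with 8 or more. In liver PC the same steps gave 4884, 4559.7, 5169, 5449.6 and 5915 CPM of Gzmb, and in kidney TIL 598, 543, 629 and 415 CPM up to 5 to 7 UMIs, with no steady direction in the latter. Ccl5 went down at each step in liver PC, from 11379 through 8964, 7189 and 6638 to 4977 CPM, and in the library labelled heart TIL from 11958 through 10477, 9399 and 8514 to 7213 CPM. Lyz2 went from 5007.5 CPM through 5282, 3563.5 and 2182.3 to 1362 CPM in liver PC and from 9728 to 2855 CPM in the library labelled heart TIL. Pdcd1 in the library labelled heart TIL went from 117 CPM with 0 cycle UMIs to 239 CPM with 8 or more. The median depth of these cells went from 1238 to 3057.5 UMIs in liver PC.

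**Figure D4:**
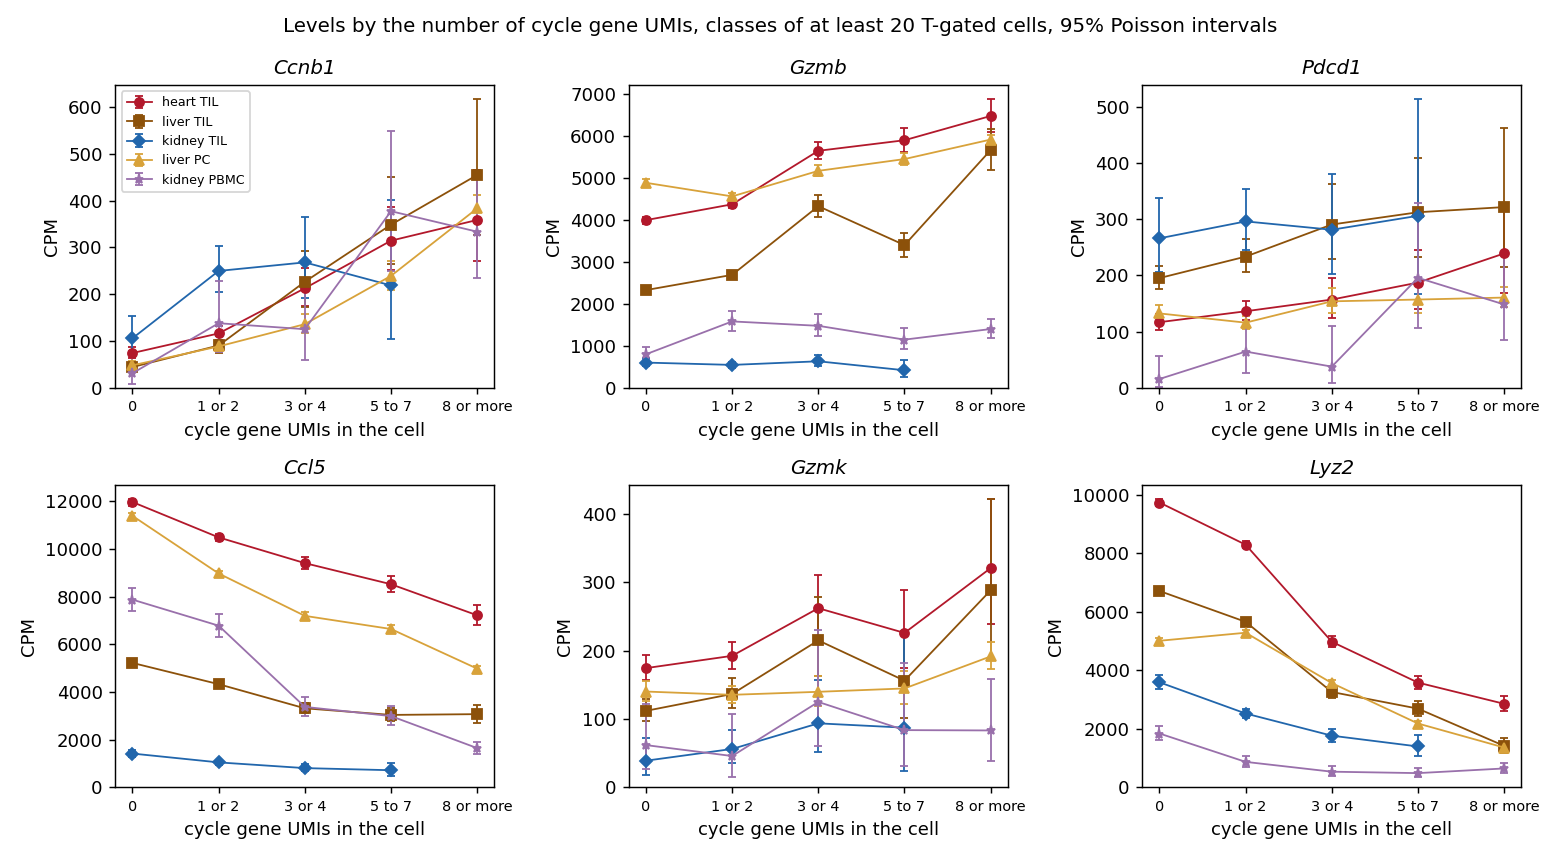
CPM (y axis) of Ccnb1, Gzmb, Pdcd1, Ccl5, Gzmk and Lyz2 in T cells by the number of cycle gene UMIs per cell (x axis), for the 5 libraries with at least 20 cells in most classes, with 95% Poisson intervals. Ccl5 and Lyz2 go down from left to right in each graft library shown except for a step in liver PC for Lyz2 and the last step of the library labelled liver TIL for Ccl5.

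Cycling CD4 cells could be described in liver PC alone, where 41 cycling cells held a Cd4 UMI and none of Cd8a or Cd8b1, beside 1408 CD8 cells. They held 2488 CPM of Gzmb (95% Poisson interval 2183 to 2822) against 5906 (5829 to 5985) in cycling CD8 cells, 609 against 3303 CPM of Gzma and 51.6 against 332 CPM of Prf1. Of the costimulation receptors, the 3 looked at in these classes were Tnfrsf4 (OX40), at 299 CPM in the CD4 cells (200.5 to 429.9) against 47.4 CPM, Icos, at 268 against 86.8 CPM, and Tnfrsf18 (GITR), at 526 against 105 CPM. Foxp3, the factor of regulatory T cells, had 0 UMIs in the cycling CD4 cells, which allows up to 31.0 CPM at a floor of 3 counts, and 5 UMIs, or 51.5 CPM (16.7 to 120.1), in 70 non-cycling CD4 cells. The counting intervals of these Foxp3 values overlapped.

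In blood, with 38, 28 and 146 cycling T cells in PBMCs of heart, liver and kidney recipients, 3179 genes could be tested in the same way, a comparison chosen after seeing the data. Of these, 125 (3.93%) were higher and 339 (10.7%) lower. Gzmb rose (log2 0.66, adjusted p = 0.0067) and Ccl5 fell by 1.04 on the log2 scale (adjusted p = 4.69e-05), as in the grafts. The G2M score genes were higher in cycling cells by a log2 of 2.30 and 2.11 in PBMCs of heart and liver recipients. In kidney PBMC, which held most of the cycling cells of blood, the margin was smaller, at 9827 against 4913 CPM. In PBMCs of heart, liver and kidney recipients a Cd8a or Cd8b1 UMI was found, after thinning, in 52.6, 42.9 and 56.8% of cycling T cells. Non-cycling T cells held one in 32.1, 39.8 and 54.2%. Csf1r cells, with medians of 804, 779 and 727 UMIs, held one in 9.12, 4.97 and 3.33%. The 3.33% was 1 of 30 cells (0.08 to 17.2%).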

How the data were processed

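Microwell-seq was run on PBMCs, TILs and PCs. The authors aligned reads to GRCm38 with STAR, removed reads with several alignments, tagged genes from GENCODE, whose release was not given in the sources used here, and counted near-identical UMIs within a gene as 1. bcl2fastq is named in the submitters' processing notes. The deposited tables give UMI counts, not normalized, by gene for 10000 barcodes in each of 8 libraries, not yet filtered, with no column left unmapped to a sample. All rows name a gene. Depth per library sets the precision given beside each value.

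Groups were taken from the source names in the labels. Counts were summed per library and class and tested with edgeR 4.0.16 in R 4.3.3 (TMM factors, filterByExpr, robust quasi-likelihood fit, library as a block, Benjamini-Hochberg over all genes tested) in graft libraries with at least 20 cells of each class. The block stands for the library that gave both classes. CPM is scaled to the summed UMIs of the class, with exact Poisson intervals at 95%. Shares of cells with a UMI were taken after thinning each cell to 500 UMIs with seed 0. Depth matching drew equal numbers of cycling and non-cycling cells within bins of 0.25 log2 UMIs, so cycling cells were left out too. It kept 621, 321, 186, 1293 and 23 cycling cells of the graft libraries. In liver PC their median was 1830 UMIs in place of 2142. DESeq2 1.42.0 and the other alternatives are given in the closing section. No doublet caller was run. Cells with a Csf1r or Cd79a UMI were left out by the rule, and the 5% of cells with the most UMIs were left out as an alternative. All genes of the lists were counted, and the genes named come from them, or are the 10 largest rises and 10 largest falls of 1 sign in all libraries outside the rule genes and the cycle lists. The members, lists and tests were chosen with earlier results of these data known. The fit and the thinning were tested on simulated data. Promoters came from RefSeq (GRCm38.p6). Other steps ran under Python 3.11.15 (scipy 1.17.1, numpy 2.4.6, pandas 2.3.3, matplotlib 3.10.9).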

Additional observations from a re-analysis of the deposited data

Results flagged for a closer look

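14 list genes outside the lists of the cycle and of other cells, among those with UMIs in both classes of all 5 graft libraries, had log2 differences, cycling minus non-cycling T cells, of one sign in both kidney grafts and of the other sign in the other 3 graft libraries. The values are the mean log2 difference of the kidney libraries minus that of the others. They were below 0 for 9 genes, at -0.85 for Cd160 (-0.70 against 0.15), -0.69 for Cd8a (-0.32 against 0.37), -0.53 for Cd8b1 (-0.16 against 0.37), -0.39 for Nkg7 (-0.08 against 0.31), -1.43 for Pdcd1 (-0.97 against 0.47), -1.07 for Batf, -0.57 for Icos, -0.46 for Il2rb and -0.68 for Tbx21. They were above 0 for 5 genes, at 1.12 for Cd44, 0.16 for Gpi1, 2.33 for Hk2, 2.73 for Klf2 (2.34 against -0.39) and 0.68 for Pim1. The sign alone chose these genes, and in kidney TIL several differences were near 0, among them -0.01 for Pdcd1, -0.03 for Il2rb and 0.00090 for Gpi1. The share of all genes with such a split of signs was not counted, so the 14 cannot be set beside it and show no trait of the kidney. The difference was not tested, since there are 2 kidney libraries, and kidney PC held 25 cycling cells. The values of Pdcd1 (-1.92), Batf, Cd160, Cd44, Klf2 and Tbx21 in kidney PC rest on 1 UMI each in cycling cells. With kidney TIL alone in place of both kidney libraries, the differences ran from -0.89 for Cd160 to -0.38 for Nkg7 among the 9 genes, with -0.48 for Pdcd1, and from 0.15 for Gpi1 to 1.95 for Hk2 among the 5. Depth and the mitotic margin differed in the same direction, since cycling cells of the kidney grafts had medians of 914 and 673 UMIs and stood above the non-cycling cells by a log2 of 0.31 and 0.54 in the G2M score genes. The part of either was not tested.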

How the results depend on the processing

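Of the alternatives tried, DESeq2 called 266 genes higher and 659 lower, of which 265 and 658 were also called by edgeR. Depth-matched non-cycling cells gave 295 and 589, total UMIs gave 1310 higher, and the fit without the library block gave 0 and 0, with 523 genes at an unadjusted p under 0.05. Without 1 library each, the counts ran from 259 to 912 higher and from 638 to 1382 lower. The lowest were those without liver PC, of 5335 genes tested, and the highest those without kidney TIL, of 8628. Without the library labelled heart TIL 720 of 5455 were lower. The main fit tested 6251 genes and the fit without both kidney libraries 10297, so the counts alone cannot be set against each other. Alternatives chosen after seeing the data were the blood libraries, with 125 and 339, the grafts without both kidney libraries, with 1375 higher, those without the libraries labelled heart TIL and liver TIL, with 123 and 311, and all 8 libraries, with 499 and 812. With every gene kept, 518 of 21049 genes were higher and 1640 lower. Replicate numbers pair no library with another, and cycling and non-cycling cells were paired within each library by the library block.

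Of the 65 named genes outside the cycle lists that passed, DESeq2 kept 44, depth matching 40 of the 53 tested, the fits without 1 library from 44 to 61, and the fit without the libraries labelled heart TIL and liver TIL 27 of 51. The 65 include the 10 largest rises, several of them genes of mitosis, and the 10 largest falls. Of the 27 kept, 9 were such rises and 3 such falls. Depth matching turned 2, Il2ra to -0.10 and Klf2 to 0.0080. The difference in CD8 share ran from -0.11 to 0.18 percentage points without 1 library each, and it was -0.58 in unthinned cells, -0.71 in depth-matched cells and -0.89 at a gate of 5 cycle UMIs.

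Shares of cycling cells moved with the gate. In the order heart, liver and kidney TIL, liver and kidney PC, and heart, liver and kidney PBMC, they were 4.81, 3.78, 3.55, 18.4, 0, 2.98, 5.63 and 21.0% at a gate of 5 cycle UMIs, 27.5, 23.2, 43.5, 33.2, 41.7, 11.6, 21.2 and 63.9% among cells of at least 1000 UMIs, and 3.74, 2.84, 6.82, 6.24, 3.40, 1.85, 3.97 and 10.5% after thinning. At a T gate of 3 UMIs they were 15.5% and 13.7% in the libraries labelled heart TIL and liver TIL, 32.6% in liver PC, and 10.2, 18.4 and 42.6% in PBMC. Kidney PC left the fit at the gate of 5, the T gate of 3, the floor of 1000 UMIs and without the cells richest in UMIs, since fewer than 20 cycling cells were left. Its 18863 UMIs limit every value of its cycling cells.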
